A study of Mus musculus with 9 samples.

Results

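Semaphorins are signalling proteins and plexins are their receptors, and the RNA levels of 6 semaphorins (*Sema3a*, *Sema3c*, *Sema3d*, *Sema3f*, *Sema3g*, *Sema6a*) and 4 plexins (*Plxna1*, *Plxna2*, *Plxnb2*, *Plxnd1*) were examined in cultured endothelial cells of mice with and without an endothelial deletion of JNK genes. The genes were taken by symbol, and each of the 10 was found as 1 row among the 37104 loci of the deposited expression tables. The cells were primary mouse lung endothelial cells (MLEC), selected by the surface protein ICAM2 and cultured, from C57BL/6J mice of 10 to 12 weeks, with the lungs of 4 mice pooled in each isolation. The question was which genes differ between endothelial cells with and without the stress-activated kinases JNK1 (*Mapk8*) and JNK2 (*Mapk9*). There were 3 groups of 3 libraries, each library from its own isolation. ECtrl cells carried Cdh5-Cre, a recombinase driven by the promoter of the endothelial gene *Cdh5*, together with intact Jnk1+/+ and Jnk2+/+ alleles. EfCtrl cells carried Jnk1LoxP/LoxP and Jnk2LoxP/LoxP alleles, which Cre can delete, and no Cre. E3KO cells carried both Cdh5-Cre and the LoxP alleles. All 3 groups were also Jnk3-/-, so every library lacks the third JNK gene (*Mapk10*) and no group is wild-type. Values are FPKM, a fragment count scaled to transcript length and library size, one for each locus in each library. The number of fragments behind a value is not in the files, so no counting interval is given.

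Class 3 semaphorins are secreted and guide axons and vessels, mostly by repulsion. Most of them bind a neuropilin coreceptor (*Nrp1* or *Nrp2*) that associates with a class A plexin, whereas *Sema3e* can bind plexin D1 directly. The other vertebrate classes are membrane-bound, and *Sema6a* is one of these. The intracellular part of a plexin inactivates small GTPases of the Ras and Rap family, which loosens integrin adhesion and the cytoskeleton, and plexin D1 is known in endothelium for restraining vessel growth.

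One library stood apart from the other 8. The library labelled E3KO replicate 1 had a summed FPKM of 9841812, against 656089 to 908401 in the others, and its 10 highest symbols held 96.4% of that sum, against 40.9% to 56.8%. Without the symbols that averaged 5000 FPKM or more, its sum of 420517 lay within the range of the other 8 libraries (388537 to 433172). It listed 19239 symbols at 0, more than any other library (16436 to 17964).

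The deleted genes were read first. *Mapk9* was at 27.6, 35.1 and 20.7 FPKM in E3KO replicates 1, 2 and 3, below every control library (42.7 to 50.9). *Mapk8* was at 8.77 and 4.65 FPKM in E3KO replicates 2 and 3, but at 20.8 FPKM in the library labelled E3KO replicate 1, above all 6 controls (14.1 to 17.9). For *Mapk8*, that library therefore went against its label. RNA from an allele with some exons deleted still counts in these values, and how much of each locus was deleted cannot be read from them. *Mapk10* stayed at or under 0.270 FPKM in all 9 libraries. Results below are given with this library, and without it where they rest on it.

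The class 3 ligands *Sema3a*, *Sema3d* and *Sema3g* were lower in all 3 E3KO libraries than in any of the 6 controls. Relative to the mean of the control libraries, E3KO had 51.4% of *Sema3a*, 17.6% of *Sema3d* and 22.8% of *Sema3g*. The ligands *Sema3f* and *Sema6a* and the plexins *Plxna1*, *Plxnb2* and *Plxnd1* overlapped between E3KO and controls. *Plxna2* was the 1 member higher in every E3KO library than in every control, at 132% of the control mean on average. Such complete separation was seen with E3KO lower in 11.5% and with E3KO higher in 5.18% of the 10605 genes whose mean reached 2 FPKM in some group. The counts among the 10 members were 3 lower and 1 higher.

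**Figure D1:**
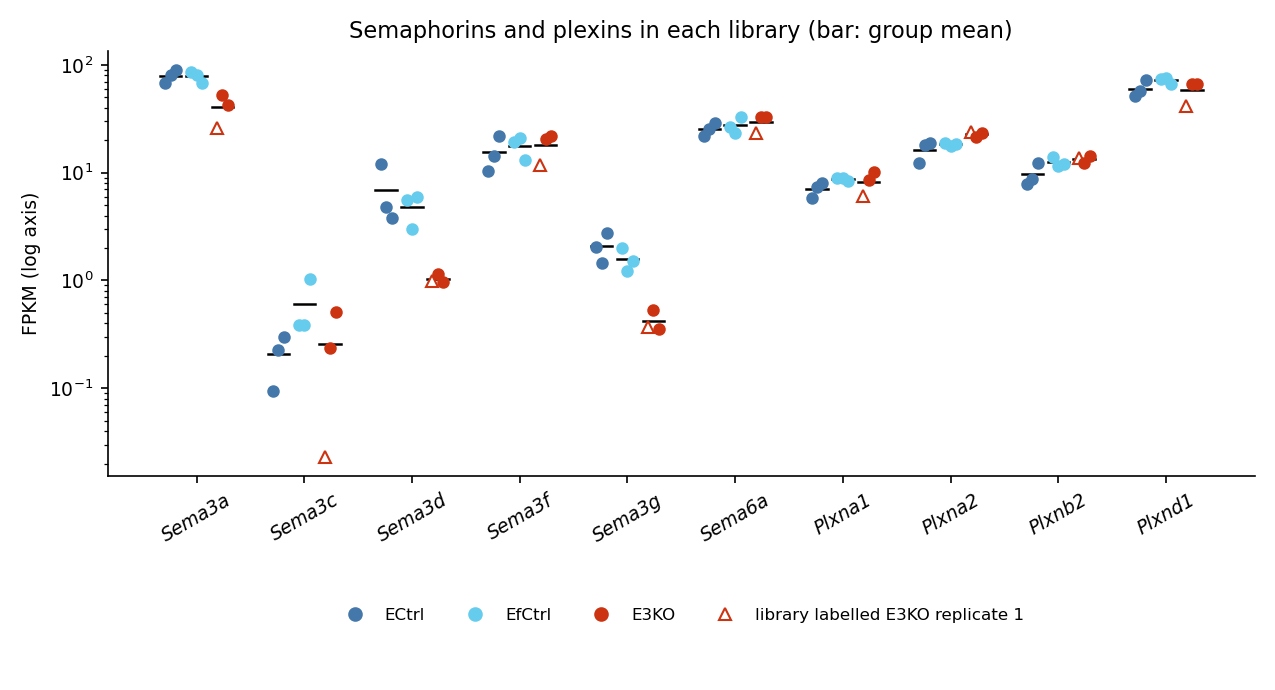
FPKM of each member (log axis) in the 9 libraries, with a bar at the mean of each group of 3 and an open triangle for the library labelled E3KO replicate 1. The red E3KO points lie below all blue control points for Sema3a, Sema3d and Sema3g, above them for Plxna2, and overlap the control range for the other 6 members.

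*Sema3a*, a secreted repellent that acts through neuropilin-1 and A-type plexins, was the most abundant member in control cells. It read 67.3, 80.9 and 89.5 FPKM in ECtrl replicates 1 to 3, 85.7, 80.5 and 68.2 FPKM in EfCtrl, and 26.1, 53.0 and 42.2 FPKM in E3KO. The highest E3KO library was below the lowest control, and the library labelled E3KO replicate 1 was the lowest of the 9. On the log2(FPKM + 1) scale *Sema3a* fell by 0.99 against the mean of the controls (SE 0.21, limma with Benjamini-Hochberg adjustment over 10605 genes, adjusted p = 0.0400). Against ECtrl alone the difference was -1.001 (adjusted p = 0.0733) and against EfCtrl alone -0.98 (adjusted p = 0.101), neither past the threshold of 0.05. Without E3KO replicate 1 the difference from the controls was smaller, -0.71 with an adjusted p of 0.0498. The call was also kept without E3KO replicate 2, at -1.21 (adjusted p = 0.0368), but was lost without E3KO replicate 3 or any 1 control library, with adjusted p between 0.0561 and 0.107 in those 7 limma fits. It was lost as well without the filter on low values (adjusted p = 0.0768).

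*Sema3d*, a secreted ligand known for patterning vessels and for binding neuropilins, showed the largest log2 difference of the 9 tested members. It read 12.1, 4.78 and 3.81 FPKM in ECtrl, 5.54, 3.03 and 5.92 FPKM in EfCtrl, and 0.989, 1.14 and 0.970 FPKM in E3KO. The controls spread from 3.03 to 12.1 FPKM, with ECtrl replicate 1 far above the rest, whereas the 3 E3KO libraries were close to 1 FPKM. *Sema3d* fell by 1.65 on the log2(FPKM + 1) scale against the mean of the controls (SE 0.31, limma adjusted p = 0.0291) and also fell against ECtrl, with -1.81 (adjusted p = 0.0471), and the difference of -1.48 from EfCtrl did not pass (adjusted p = 0.0986). Without ECtrl replicate 1 it was -1.43 against the controls (adjusted p = 0.0191). Without E3KO replicate 1 the size was nearly the same, -1.63, but the adjusted p was 0.0631, and the call was likewise lost without E3KO replicate 2 or 3 or EfCtrl replicate 1 or 3 (adjusted p 0.0659 to 0.103). The call against ECtrl was lost in each of the 9 fits that left out 1 library (adjusted p 0.0513 to 0.135), without the filter on low values (0.0913), after centring (0.0539) and with only the groups compared in the fit (0.137). The replicate number as a block ended it as well (0.07765). Without the filter on low values the call against the mean of the controls was lost too (adjusted p = 0.0621).

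*Sema3g*, a class 3 ligand known from endothelium, especially that of arteries, was low in all groups. It read 2.04, 1.44 and 2.77 FPKM in ECtrl, 2.00, 1.22 and 1.52 FPKM in EfCtrl, and 0.371, 0.527 and 0.354 FPKM in E3KO. All 3 E3KO libraries were below 0.6 FPKM and all 6 controls above 1 FPKM. It passed the filter on low values only through ECtrl, where it was highest (mean 2.08 FPKM), so the filter favoured a difference from that group. The limma fit without the filter, over 20429 loci, gave -0.98 against the mean of the controls (adjusted p = 0.0360) and -1.10 against ECtrl (adjusted p = 0.0546), of which only the first is a call. With the filter the adjusted p was 0.0167 and 0.0280, and the difference of -0.85 from EfCtrl did not pass (adjusted p = 0.0692). Adding 1 to each value understates the change of so low a gene, and with 0.1 added it fell by 1.87 against the mean of the controls (adjusted p = 0.0142). The call against ECtrl, made with the filter, was lost with a mean-variance trend (adjusted p = 0.0767) and with only the groups compared in the fit (0.1285). It was lost too with the replicate number as a block (0.0612). Of the 8 fits that left out 1 library and still tested the gene, 6 lost it (adjusted p 0.0529 to 0.108). It held without ECtrl replicate 2 (0.0355) and E3KO replicate 1 (0.0475). The call against the controls was lost with a mean-variance trend (adjusted p = 0.0556), without EfCtrl replicate 3 (-0.98, adjusted p = 0.0537) or E3KO replicate 3 (-0.95, adjusted p = 0.0822) and kept in the 6 other fits that still tested the gene, at -0.95 with adjusted p = 0.0384 without E3KO replicate 1. Without ECtrl replicate 3 no group mean reached 2 FPKM and the gene was not tested.

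Of the 9 members that passed the filter, 3 were thus called lower against the mean of the controls, 2 of 8 when *Sema3g* is set aside, where 3.26% of all tested genes were called lower, 1.54% higher and 4.8% in either direction. Against ECtrl it was 2 of 9, or *Sema3d* alone when *Sema3g* is set aside, where 1.43% of genes were called lower, 0.82% higher and 2.25% in either direction. Against EfCtrl none of the 9 was called by limma, where 0.585% of genes were called lower, 0.368% higher and 0.952% in either direction. At an unadjusted p under 0.05 against EfCtrl there were 3 members and 1878 of the 10605 genes. *Sema3d* also passed the filter only through the controls (mean 6.88 FPKM in ECtrl, 4.83 in EfCtrl and 1.03 in E3KO). Because *Sema3g* and *Sema3d* entered through groups where they were high, these counts are a description of the list and nothing is read from them. The 3 comparisons share the E3KO libraries and partly the controls, so they are not independent of each other. Between the 2 control groups limma called 0 of 10605 genes and no member, with 195 genes at an unadjusted p under 0.05. The median of the 9 tested members against the mean of the controls was 0.04 on the log2 scale, and that of all tested genes -0.08. When each library was centred on its median, the calls over all genes split into 209 higher and 268 lower, in place of 163 and 346.

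**Figure D2:**
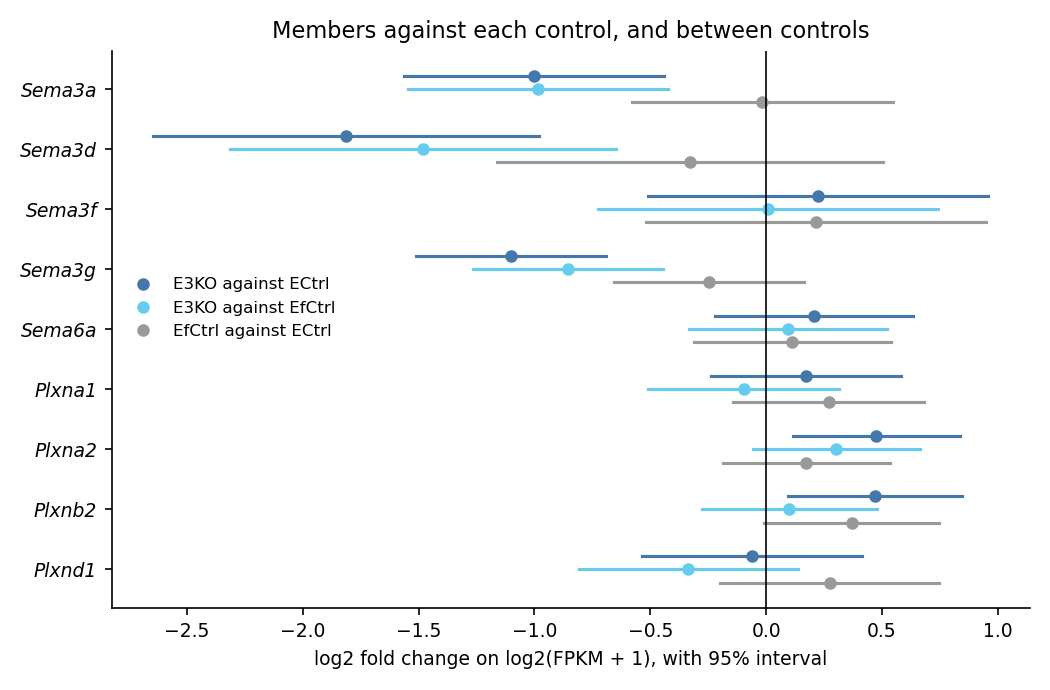
log2 fold change of the 9 tested members on the log2(FPKM + 1) scale, as points with 95% intervals from limma, for E3KO against ECtrl, E3KO against EfCtrl and EfCtrl against ECtrl. The intervals of Sema3a, Sema3d and Sema3g lie below 0 in both comparisons of E3KO, from -2.64 to -0.98 for Sema3d against ECtrl, and include 0 between the controls.

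Each member was also compared alone, 3 E3KO against 6 control libraries on log2(FPKM + 0.1), with an exact permutation test, two-sided, over the 84 possible splits. *Sema3a* (-1.01), *Sema3d* (-2.26), *Sema3g* (-1.87) and *Plxna2* (0.41) each had an exact p of 0.0119, the smallest value that 84 splits can give. These are the 4 members that separated completely, as did 11.5% of the tested genes with E3KO lower and 5.18% with E3KO higher, so the p adds no count to that separation. The other 6 of the 10 members had exact p between 0.131 and 0.905. For *Plxna2* the exact p rose to 0.143 without E3KO replicate 1 and to 0.107 without E3KO replicate 3.

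The start regions of the 3 ligands that fell, and of *Plxna2* for contrast, are shown because the genes moved together or apart in these libraries. They are the RefSeq windows of GRCm38.p6, the same assembly as mm10, from 250 bases before to 50 bases after each annotated start, all on the plus strand, and capitals mark CpG dinucleotides. *Sema3a* (chromosome 5, 13396784 to 13602565, mm10) has its window at chr5:13396534-13396833. *Sema3d* (chromosome 5, 12383166 to 12588943) has its window at chr5:12382916-12383215. *Sema3g* (chromosome 14, 31217860 to 31230350) has its window at chr14:31217623-31217922, and *Plxna2* (chromosome 1, 194619829 to 194816869) at chr1:194619579-194619878.
Sema3a: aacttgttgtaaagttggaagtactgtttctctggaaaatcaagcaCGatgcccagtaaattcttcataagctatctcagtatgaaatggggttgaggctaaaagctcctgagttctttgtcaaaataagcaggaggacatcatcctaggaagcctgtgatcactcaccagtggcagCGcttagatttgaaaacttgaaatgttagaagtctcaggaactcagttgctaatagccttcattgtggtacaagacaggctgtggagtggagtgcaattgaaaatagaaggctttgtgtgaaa
Sema3d: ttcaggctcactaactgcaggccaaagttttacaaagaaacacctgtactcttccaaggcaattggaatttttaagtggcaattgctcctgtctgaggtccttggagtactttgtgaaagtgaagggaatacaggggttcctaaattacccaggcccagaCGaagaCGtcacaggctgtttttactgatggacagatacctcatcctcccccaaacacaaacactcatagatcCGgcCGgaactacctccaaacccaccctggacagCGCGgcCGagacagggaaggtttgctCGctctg
Sema3g: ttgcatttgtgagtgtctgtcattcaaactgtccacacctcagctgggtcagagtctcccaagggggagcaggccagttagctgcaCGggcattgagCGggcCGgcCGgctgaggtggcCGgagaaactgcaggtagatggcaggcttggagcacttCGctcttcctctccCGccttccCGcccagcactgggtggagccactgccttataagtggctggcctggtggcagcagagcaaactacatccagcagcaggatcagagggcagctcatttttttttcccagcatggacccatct
Plxna2: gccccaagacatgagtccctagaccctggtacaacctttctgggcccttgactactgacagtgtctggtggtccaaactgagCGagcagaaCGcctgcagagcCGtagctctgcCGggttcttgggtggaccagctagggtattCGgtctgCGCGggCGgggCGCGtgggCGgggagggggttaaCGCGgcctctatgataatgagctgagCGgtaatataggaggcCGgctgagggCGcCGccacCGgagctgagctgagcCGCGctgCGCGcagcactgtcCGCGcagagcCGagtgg
The windows of *Sema3d* and *Sema3g* hold 8 CpG each, near the median of 7 over all 32851 promoters of the table, and that of *Sema3a* holds 2. Those of the other members in the table hold more, with 25 in *Plxna2*, 23 in *Plxnd1*, 42 in *Sema3c* and 27 and 15 in the 2 windows of *Plxnb2*. The binding sequences of AP-1, whose subunit c-Jun is the substrate that named JNK, were searched on both strands as TGANTCA and TGACGTCA. Neither occurs in any of the 8 windows of the 7 members in the table, and they occur in 7.81% and 1.79% of all promoters. This describes these letters in these windows only. The annotations disagree on where *Sema3a*, *Sema3d* and *Plxna2* start. GENCODE M21 has the gene start of *Sema3a* at 13125414, upstream of the start in the deposited tables and in RefSeq. It has that of *Plxna2* at 194618218, before its window, and that of *Sema3d* at 12383385, past the end of its window. The windows shown may therefore not be the main start regions of these genes. In GENCODE M21, *Sema3a* is overlapped by 3 unconfirmed transcripts and *Plxna2* by 4 on the same strand, *Sema3d* by 1 such transcript and a pseudogene on the opposite strand, and *Sema3g* by no other gene. Reads from such overlaps cannot be separated from those of the gene in these values.

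The remaining class 3 ligands were not called. *Sema3f* (chromosome 9, 107681502 to 107710475), a ligand that prefers neuropilin-2, read 10.3, 14.3 and 22.01 FPKM in ECtrl, 19.2, 20.9 and 13.1 FPKM in EfCtrl, and 11.8, 20.6 and 21.95 FPKM in E3KO. The 3 groups overlapped throughout, and the difference from the mean of the controls was 0.12 (95% interval -0.52 to 0.75, limma adjusted p = 0.822). An interval of this width does not show that *Sema3f* was unaffected. *Sema3c* (chromosome 5, 17574281 to 17730268), known for its part in cardiac outflow development, was below 0.6 FPKM in 8 libraries and reached 1.03 FPKM in EfCtrl replicate 3. It did not pass the filter on low values, and its exact permutation test gave p = 0.417. The difference in that test was -0.57, and 0.054 without E3KO replicate 1. *Sema3e*, the direct ligand of plexin D1, was at 4.93 to 7.77 FPKM in the controls and 5.39, 4.86 and 5.69 FPKM in E3KO, a difference of -0.21 (95% interval -0.54 to 0.11, limma adjusted p = 0.383).

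The make-up of the secreted ligands shifted with these levels. The 7 class 3 semaphorins, with *Sema3b* and *Sema3e* added to the 5 members, summed to 98.0, 109 and 124 FPKM in ECtrl, 119, 112 and 97.4 FPKM in EfCtrl, and 44.6, 80.5 and 71.6 FPKM in E3KO. *Sema3a* made up 68.6% to 74.0% of that sum in the 6 controls and 58.5%, 65.9% and 58.9% in E3KO. The share of *Sema3f* was 10.5% to 18.6% in the controls and 26.4%, 25.6% and 30.6% in E3KO. Within a library *Sema3a* exceeded *Sema3f* 3.86 to 6.51 times in the controls and 2.22, 2.57 and 1.92 times in E3KO, a ratio that does not depend on how a library was scaled. The ranges of these sums, shares and ratios did not overlap between E3KO and controls, also without E3KO replicate 1. They were formed after the values of *Sema3a* were known and carry no test.

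*Sema6a* (chromosome 18, 47235598 to 47368870), a membrane-bound ligand of the plexins A2 and A4, was close in all groups. It read 21.7, 25.4 and 29.2 FPKM in ECtrl, 26.6, 23.4 and 33.0 FPKM in EfCtrl, and 23.5, 32.7 and 32.7 FPKM in E3KO, with a difference of 0.15 from the controls (95% interval -0.22 to 0.52, limma adjusted p = 0.595).

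Of 14 semaphorins beyond the members, 6 reached the filter of 2 FPKM (*Sema3e*, *Sema4c*, *Sema4d*, *Sema6b*, *Sema6d*, *Sema7a*), none of these 6 was called by limma against either control or their mean, and their median difference from the controls was -0.29. At an unadjusted p under 0.05 against the mean of the controls there were 4 of these 6, and 2522 of the 10605 genes tested. *Sema7a*, a membrane-anchored ligand that signals through integrins and plexin C1, was the most abundant semaphorin measured, above *Sema3a*. It was at 101 to 145 FPKM in the controls and at 89.1, 99.0 and 86.0 FPKM in E3KO, with a difference of -0.36 (limma adjusted p = 0.140). *Sema6b* was at 2.59 to 3.93 FPKM in the controls and 1.63, 2.40 and 2.18 FPKM in E3KO (-0.39, limma adjusted p = 0.129). *Sema6d* lay on the other side, at 6.03 to 9.51 FPKM in the controls and 9.90, 11.4 and 13.5 FPKM in E3KO (0.48, limma adjusted p = 0.110). In these 3 genes the E3KO libraries did not overlap the controls. Of the 10605 tested genes, 11.5% separated so with E3KO lower and 5.18% with E3KO higher. *Sema4d*, a ligand of the B-type plexins, was at 1.90 to 3.04 FPKM in the controls and 0.477, 1.78 and 2.18 FPKM in E3KO (-0.56, limma adjusted p = 0.209), with the library labelled E3KO replicate 1 lowest. *Sema4c*, a ligand of *Plxnb2*, was at 8.497 to 17.8 FPKM in the controls and 11.6, 15.1 and 11.2 FPKM in E3KO (0.07, limma adjusted p = 0.851).

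Counting all 20 semaphorins and 9 plexins, whatever their level, E3KO was below every control in 8 (*Sema3a*, *Sema3d*, *Sema3g*, *Sema4g*, *Sema6b*, *Sema6c*, *Sema7a*, *Plxna3*) and above every control in 2 (*Plxna2*, *Sema6d*). Among the 20429 loci with a value above 0 in some library these shares were 7.1% and 3.19%. The low genes *Sema6c*, *Sema4g* and *Plxna3* are named here because they complete that count, after their values were seen. *Sema6c* was at 1.09 to 2.17 FPKM in the controls and 0.293, 0.398 and 0.297 FPKM in E3KO, a pattern as separate as that of *Sema3g*. Without the filter on low values, limma called 351 of the 20429 loci (1.72%) against the mean of the controls, 228 of them lower. *Plxna3* was at 0.427 FPKM or less in every library, near the floor. In that fit *Sema6c* (-0.86, limma adjusted p = 0.0360) and *Plxna3* (-0.28, limma adjusted p = 0.0292, from 0.365 to 0.121 FPKM in mean) were called. No fit without 1 library is given for these calls. The library labelled E3KO replicate 1 was the lowest of all for both genes, at 0.293 FPKM for *Sema6c* and 0.0783 FPKM for *Plxna3*. The 8 genes are not of 1 class, since secreted, membrane-bound and receptor genes are among them.

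**Figure D3:**
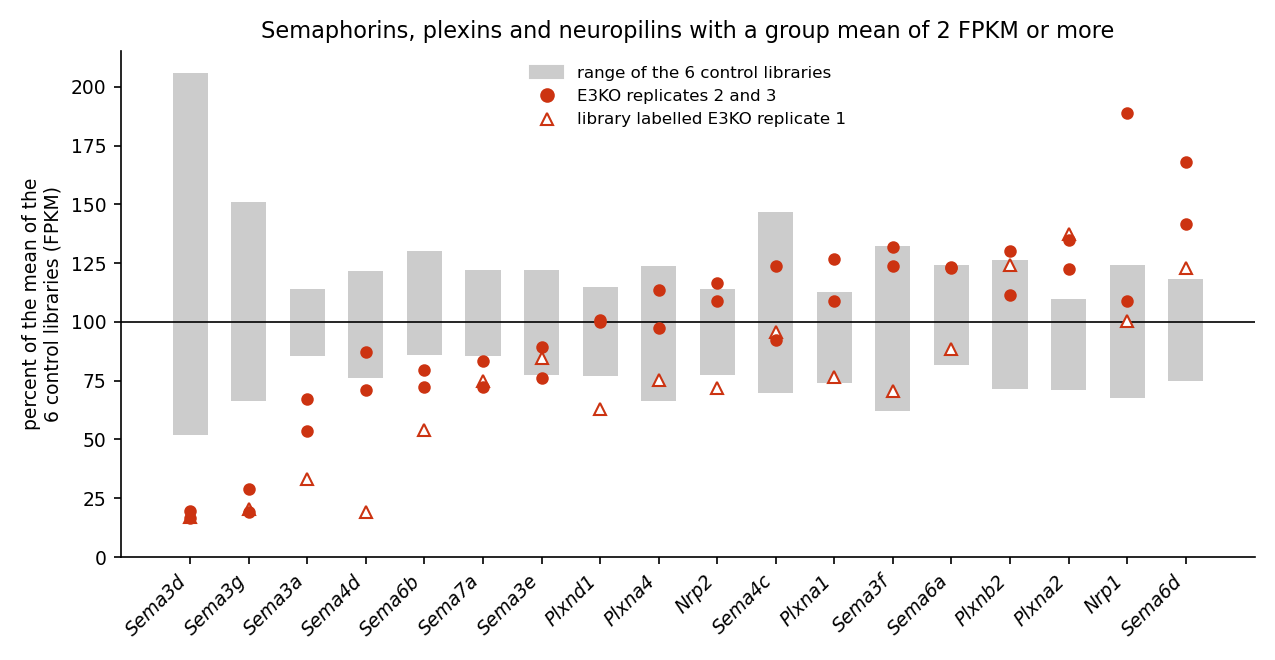
Semaphorins, plexins and neuropilins that passed the filter of 2 FPKM, ordered by E3KO level, each E3KO library as a percent of the mean of the 6 controls; grey bars span the controls and the triangle is the library labelled E3KO replicate 1. Sema3d, Sema3g and Sema3a stand at the left with group means of 17.6%, 22.8% and 51.4%, clear of their grey bars, and most receptors lie around 100%.

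In the limma fit across all genes none of the 4 receptors was called in any comparison, although *Plxna2* had the smallest possible exact permutation p. *Plxnd1* (chromosome 6, 115954811 to 115995005), the endothelial receptor for *Sema3e*, was the most abundant plexin. It read 51.1, 57.0 and 72.3 FPKM in ECtrl, 74.2, 76.1 and 66.7 FPKM in EfCtrl, and 41.7, 66.9 and 66.3 FPKM in E3KO, where only the library labelled E3KO replicate 1 lay below the controls. The difference from the controls was -0.20 (95% interval -0.61 to 0.21, limma adjusted p = 0.520), and 0.02 without that library.

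*Plxna2*, a receptor of class A that pairs with neuropilins or binds *Sema6a*, was the member with the highest E3KO level relative to controls. It read 12.3, 18.0 and 18.8 FPKM in ECtrl, 19.0, 17.6 and 18.4 FPKM in EfCtrl, and 23.9, 21.3 and 23.4 FPKM in E3KO. The 3 E3KO libraries were above all controls, and 5 of the 6 controls lay between 17.6 and 19.0 FPKM, with ECtrl replicate 1 much lower. The difference of 0.39 from the controls (SE 0.14, 95% interval 0.08 to 0.70) did not pass the limma test across all genes (adjusted p = 0.140), nor did those of 0.48 from ECtrl (adjusted p = 0.151) and 0.30 from EfCtrl (adjusted p = 0.357). Without ECtrl replicate 1 the difference from ECtrl was 0.29 (limma adjusted p = 0.294).

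*Plxnb2* (chromosome 15, 89155549 to 89171120), a receptor for class 4 semaphorins, read 7.91, 8.69 and 12.3 FPKM in ECtrl, 14.0, 11.6 and 12.1 FPKM in EfCtrl, and 13.8, 12.4 and 14.4 FPKM in E3KO. E3KO was above all of ECtrl but overlapped EfCtrl, and the differences of 0.47 and 0.10 were not called (limma adjusted p = 0.172 and 0.772). The 2 control groups themselves differed by 0.37 (limma adjusted p = 1.0, unadjusted p = 0.0541). *Plxna1* (chromosome 6, 89304630 to 89362613) is a class A plexin that can signal for *Sema3a* and *Sema3f* together with a neuropilin. It read 5.88, 7.39 and 8.10 FPKM in ECtrl, 8.91, 8.91 and 8.34 FPKM in EfCtrl, and 6.05, 8.64 and 10.0 FPKM in E3KO. Its difference from the controls was 0.04 (95% interval -0.32 to 0.39, limma adjusted p = 0.902). Of the 5 other plexins only *Plxna4* passed the filter, with 5.36 to 10.0 FPKM in the controls, 6.08, 9.18 and 7.89 FPKM in E3KO and a difference of -0.06 (limma adjusted p = 0.853). The 9 plexins together summed to 83.97 to 126 FPKM in the controls and 92.4, 120 and 124 FPKM in E3KO.

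The neuropilins, which bind the secreted ligands, were present in every library and gave no call. *Nrp2*, prominent in veins and lymphatics, was at 127 to 187 FPKM in the controls and 118, 191 and 178 FPKM in E3KO (-0.03, 95% interval -0.44 to 0.38, limma adjusted p = 0.927). *Nrp1*, also a coreceptor for VEGF, was at 4.91 to 8.99 FPKM in the controls and 7.27, 7.89 and 13.7 FPKM in E3KO (0.34, 95% interval -0.19 to 0.86, limma adjusted p = 0.396). *Nrp2* was thus above *Nrp1* in each of the 9 libraries.

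Among 23 genes that act inside the cell downstream of plexins or process semaphorins, 22 had a single row, 19 were tested and 2 fell against the mean of the controls, with a list median of -0.20, where 3.26% of all tested genes fell. *Mical2*, of a family of enzymes that oxidize actin, was at 53.4 to 65.2 FPKM in the controls and 39.2, 44.6 and 39.0 FPKM in E3KO (-0.51, limma adjusted p = 0.0314). *Crmp1*, a collapsin response mediator protein that carries the *Sema3a* signal in neurons, was at 22.1 to 40.2 FPKM in the controls and 12.0, 17.7 and 12.3 FPKM in E3KO (-1.01, limma adjusted p = 0.0301). Without 1 library *Mical2* stayed called in 2 and *Crmp1* in 3 of 9 fits, and without E3KO replicate 1 the limma adjusted p was 0.0601 and 0.0664. None of the 19 was called against ECtrl or EfCtrl alone. *Fyn*, *Rras*, *Rap1a*, *Rap1b*, *Cdk5* and the other tested genes gave no call.

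For comparison, 7 of 15 genes of the netrin, Slit and Robo guidance families were tested, of which 1 rose and 1 fell against the mean of the controls, where 1.54% and 3.26% of all tested genes did. *Slit2*, a secreted Robo ligand, was at 1.51 to 5.78 FPKM in the controls and 22.3, 10.3 and 11.7 FPKM in E3KO (1.64, limma adjusted p = 0.0467). *Ntn4*, a laminin-binding netrin of vessel basement membrane, was at 75.5 to 105 FPKM in the controls and 65.3, 59.8 and 51.4 FPKM in E3KO (-0.54, limma adjusted p = 0.0495). The list median was -0.34. Neither call was firm, since *Slit2* was called in 0 and *Ntn4* in 1 of the 9 fits without 1 library (limma adjusted p up to 0.113 and 0.152), and *Slit2* was at 1.32 without E3KO replicate 1 (limma adjusted p = 0.102). In all 3 E3KO libraries *Slit2* was above every control while *Sema3a*, *Sema3d* and *Sema3g* were below every control.

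In the 6 control libraries the member levels, which are per transcript length, were put in the order of their means. *Sema3a* averaged 78.7 ± 9.11 FPKM (SD, n = 6), above *Plxnd1* (66.2 ± 10.1 FPKM), *Sema6a* (26.5 ± 4.07 FPKM) and *Plxna2* (17.4 ± 2.52 FPKM). *Sema3f* (16.6 ± 4.72 FPKM), *Plxnb2* (11.1 ± 2.33 FPKM), *Plxna1* (7.92 ± 1.15 FPKM) and *Sema3d* (5.86 ± 3.22 FPKM) followed, and *Sema3g* (1.83 ± 0.561 FPKM) and *Sema3c* (0.404 ± 0.327 FPKM) came last. Of the 9 pairs of neighbours, 7 kept their order in all 6 libraries, with an exact two-sided sign-flip p of 0.0312, the smallest possible with 6, and a Benjamini-Hochberg adjusted p of 0.0402 over the 9. The pairs were formed by ranking the means of these same 6 libraries, so the p does not test an order set beforehand. *Plxna2* and *Sema3f* (exact p = 0.438, *Plxna2* higher in 3 of 6) and *Plxna1* and *Sema3d* (exact p = 0.156, *Plxna1* higher in 5 of 6) did not differ beyond their spread. In E3KO the order at the top was the other way round, with a mean of 58.3 ± 14.4 FPKM for *Plxnd1* and 40.4 ± 13.6 FPKM for *Sema3a* (SD, n = 3), and *Plxnd1* was above *Sema3a* in each of the 3 libraries.

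The genes whose profile over the 9 libraries was most like that of each ligand that fell were found by the root mean square (RMS) difference of centred log2(FPKM + 1) values, among all 10605 tested genes. For *Sema3a* they were *Pxdc1* (0.14, from 18.8 FPKM in the controls to 8.96 in E3KO), *Tubb2b* (0.15, from 7.40 to 3.15) and *Gprc5b* (0.15, from 74.9 to 40.8). For *Sema3d* they were *Dkk2* (0.25, from 11.8 to 3.49), *Prkd1* (0.27, from 6.36 to 1.84) and *Top2a* (0.28, from 39.8 to 15.7). For *Sema3g* they were *Ttc39a* (0.11, from 2.81 to 0.882), *Lig1* (0.11, from 10.6 to 5.004) and *Il15ra* (0.13, from 5.77 to 2.42). The profiles of *Sema3a*, *Sema3d* and *Sema3g* themselves had an RMS of 0.54, 0.89 and 0.51.

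Markers of cell types were read in the same libraries, because in bulk RNA fewer cells of a type and less RNA in each cell cannot be told apart. Endothelial markers were abundant, with *Cdh5* at 613 to 943 FPKM, *Pecam1* at 644 to 798 FPKM and *Icam2* at 150 to 211 FPKM over the 9 libraries, while *Vwf* was at 2.15 FPKM or less. The 12 endothelial markers summed to 3370, 3669 and 4076 FPKM in ECtrl, 3872, 3861 and 3690 FPKM in EfCtrl, and 3868, 4380 and 4167 FPKM in E3KO. Of 11 tested, 1 rose and 1 fell against the mean of the controls, where 1.54% and 3.26% of all tested genes did. *Emcn*, a sialomucin of capillary and venous endothelium and the most abundant, rose (0.63, limma adjusted p = 0.0261). *Cldn5*, a tight junction protein, fell (-0.92, limma adjusted p = 0.0322). Without E3KO replicate 1 the differences were 0.60 for *Emcn* (limma adjusted p = 0.0540) and -0.81 for *Cldn5* (limma adjusted p = 0.0704).

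Of 7 lymphatic endothelial markers, all tested, 3 fell against the mean of the controls, where 3.26% of all tested genes did. The other 4 were not called. *Prox1*, the transcription factor that defines lymphatic identity, was at 117 to 158 FPKM in the controls and 58.1, 79.2 and 64.7 FPKM in E3KO (-0.99, limma adjusted p = 0.0131). *Reln* (-0.96, limma adjusted p = 0.0167) and the chemokine *Ccl21a* (-1.65, limma adjusted p = 0.0381, highest in ECtrl replicate 1 as *Sema3d* was) fell too. Leaving out E3KO replicate 3 ended the calls of *Prox1* (limma adjusted p = 0.0746) and *Reln* (0.0803), which held in the 8 other such fits, and *Ccl21a* was called in 2 of 9. *Ccl21a* passed the filter on low values only through the controls (mean 0.773 FPKM in E3KO). The other markers were *Mmrn1* (-0.58, limma adjusted p = 0.1002), *Pdpn* (-0.29, 0.224), *Flt4* (-0.12, 0.610) and the most abundant, *Lyve1* (-0.07, 0.717), which was at 1534 to 2050 FPKM in the controls and 1513, 1728 and 1576 FPKM in E3KO. The list summed to 3341, 2527 and 2733 FPKM in ECtrl, 2803, 2467 and 2759 FPKM in EfCtrl, and 2275, 2566 and 2304 FPKM in E3KO. These sums overlapped between E3KO and controls, and *Lyve1* made up most of each. In 4 of the 7 markers (*Prox1*, *Ccl21a*, *Reln* and *Mmrn1*) every E3KO library was below every control, as in 11.5% of tested genes. Of 9 tested arterial markers out of 10, *Hey1* (-1.06, limma adjusted p = 0.0185) and *Gja4* (-1.07, limma adjusted p = 0.0408) fell against the mean of the controls. Of all tested genes, 3.26% were called lower in that comparison. The calls of *Hey1* and *Gja4* held in 6 and 1 of 9 fits without 1 library. *Gja4* passed the filter on low values only through the controls (mean 1.11 FPKM in E3KO). The most abundant arterial marker, *Cxcr4*, was at 150 to 256 FPKM in the controls and 186, 251 and 190 FPKM in E3KO. The other 7 were not called, and they lay on both sides, with *Sox17* at 1.95 to 3.55 FPKM in the controls and 3.67, 4.14 and 6.13 FPKM in E3KO (0.57, limma adjusted p = 0.0733) and *Gja5* and *Dll4* at -0.97 and -0.71 (limma adjusted p = 0.0733 and 0.0783), all 3 named after their values were seen. The arterial list summed to 218, 261 and 334 FPKM in ECtrl, 251, 264 and 254 FPKM in EfCtrl, and 230, 308 and 251 FPKM in E3KO. The part of lymphatic or arterial cells in the levels of *Sema3a*, *Sema3d* and *Sema3g* was not tested.

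Other cell types left smaller signals. The 9 leukocyte markers with a row, led by *Lyz2*, summed to 74.6, 156 and 133 FPKM in ECtrl, 188, 261 and 160 FPKM in EfCtrl, and 211, 295 and 318 FPKM in E3KO, with none of 5 tested called. In this list *Lyz2* was at 176% and *Cd68* at 188% of the control mean in E3KO (limma adjusted p 0.202 and 0.165), *Itgam*, too low to be tested, was at 0.156 to 1.30 FPKM in the controls and 1.98, 1.66 and 1.96 FPKM in E3KO, and the defining marker *Ptprc* was at 1.59 FPKM or less everywhere, at 126% of the control mean in E3KO. *Laptm5* and *Cd14* were at 148% and 125%, *Csf1r* and *Emr1* at 103% and 99.2%, and *Aif1* was high in the library labelled E3KO replicate 1 alone (8.34 FPKM, at most 1.78 FPKM elsewhere). The 12 fibroblast and mural markers, led by *Acta2*, summed to 13.3, 48.6 and 38.3 FPKM in ECtrl, 28.0, 67.9 and 81.9 FPKM in EfCtrl, and 12.5, 19.9 and 26.4 FPKM in E3KO, with none of 6 tested called. In this list *Acta2* was at 29.0% of the control mean in E3KO, *Tagln* at 47.9%, *Col1a1* at 12.3% and *Col1a2* at 12.2% (limma adjusted p 0.103 to 0.244), with all 3 E3KO libraries below every control for *Col1a1*. The other 2 tested, *Col3a1* and *Dcn*, were at 86.7% and 92.9%. *Pdgfra* (96.5%), *Pdgfrb* (90.04%), *Lum* (120.5%), *Cspg4* (324%) and *Rgs5* (274%) were below 1 FPKM in all 9 libraries. *Des* (26.7%) was at 1.05 FPKM or less. The part of these cells in the levels of the ligands was not tested. The 10 epithelial markers summed to 2.66 to 6.05 FPKM in 8 libraries and to 51.6 FPKM in the library labelled E3KO replicate 1, with neither of 2 tested called. In that library the club cell gene *Scgb1a1* was at 46.2 FPKM, *Epcam* at 1.79 FPKM, *Sftpc* at 1.35 FPKM and *Aqp5* at 0.266 FPKM, above every control. The rest of the list lay within the control range there, with *Krt18* at 1.755 FPKM, *Krt8* at 0.0895 FPKM and *Cdh1* at 0.0441 FPKM. *Sftpa1* was at 0.034 FPKM, and *Muc1* and *Sftpb* were at 0. None of the markers was listed at 0 in all 9 libraries. The part of leukocytes and epithelial cells in the results was not tested.

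**Figure D4:**
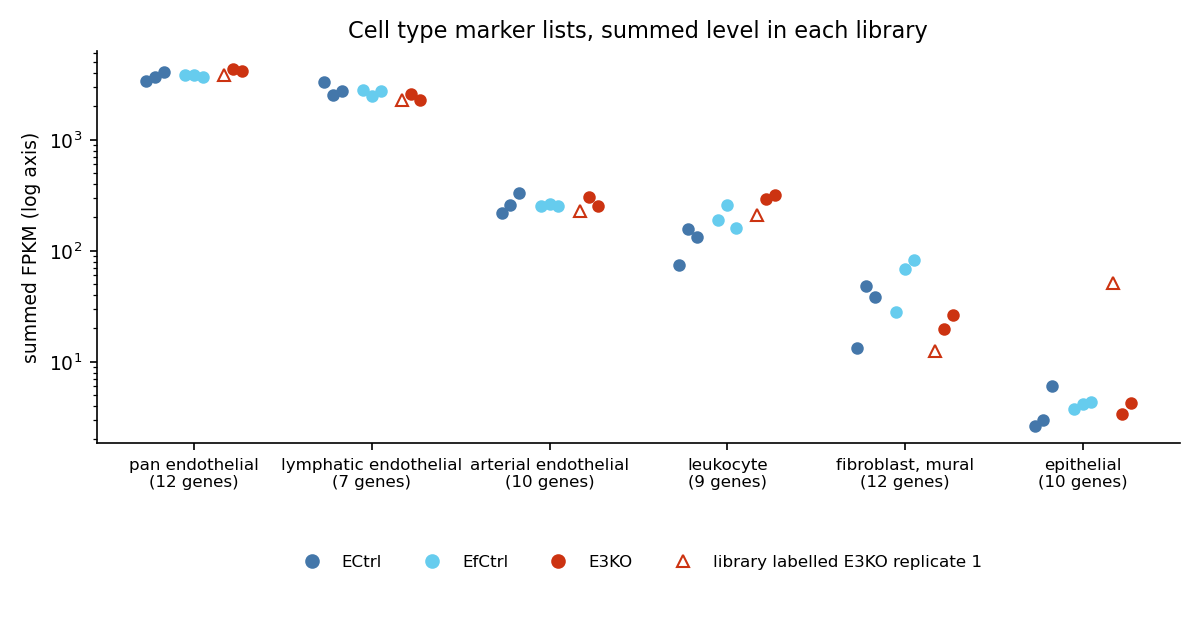
Summed FPKM (log axis) of 6 lists of cell type markers in each of the 9 libraries, grouped as ECtrl, EfCtrl and E3KO, with a triangle for the library labelled E3KO replicate 1. Endothelial sums lie between 3370 and 4380 FPKM, lymphatic sums are 2467 to 3341 FPKM in the controls and 2275 to 2566 FPKM in E3KO, and the epithelial sum is 51.6 FPKM in the triangle library and at most 6.05 FPKM in the rest.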

How the data were processed

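RNA-seq libraries were prepared from 9 MLEC isolations and sequenced as paired ends. The authors aligned reads to mm10 with TopHat2 and made FPKM with Cufflinks (version 1.0.3 in the submitters' processing notes), Cuffmerge and Cuffdiff; the deposited tables hold an FPKM value for each locus and library. They also hold the authors' fold changes, p-values and q-values between groups, which were not used. Strand handling is not given in the sources used here. Groups came from the sample labels.

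Values were fitted as log2(FPKM + 1) with limma 3.58.1 (R 4.3.3), 3 groups in 1 fit, for the 10605 genes whose mean reached 2 FPKM in some group, and calls were made at a Benjamini-Hochberg adjusted p under 0.05. The fit was tested on data simulated with normal noise, without a library as far apart as E3KO replicate 1. Of log2 changes of 1 it called 62% against ECtrl, 69% against EfCtrl and 75% against their mean. Of log2 changes of 2 it called 80%, 84% and 87%, so genes not called may still have changed. Fold changes understate low genes. Exact tests ran in Python 3.11.15 with numpy 2.4.6 and pandas 2.3.3. Loci, given from 1, were compared with GENCODE M21 on the same build. Genes named were the 10 members, the *Mapk* genes, called or abundant genes of the lists (every semaphorin, plexin and neuropilin over 2 FPKM included), each marker list's most abundant gene, and 3 genes alike to each called member; others are marked or are short lists in full or defining markers. The members and lists were chosen with earlier results of these data known. Alternatives covered the pseudocount, filter, mean-variance trend, centring, replicate block, groups fitted, a minimum fold and each library left out.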

Additional observations from a re-analysis of the deposited data

Results flagged for a closer look

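In 3 members a single control library lay far from the other 5, by Dixon's ratio of the gap to the whole range at its 95% critical value for 6 libraries. *Sema3d* was at 12.06 FPKM in ECtrl replicate 1, the highest of the 6 (ratio 0.68). *Plxna2* was at 12.32 FPKM in the same library, the lowest of the 6 (ratio 0.79). *Sema3c* was at 1.03 FPKM in EfCtrl replicate 3, the highest of the 6 (ratio 0.69). Chance alone puts about 1 in 20 groups past this value, and 10 members were examined.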

How the results depend on the processing

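The falls of *Sema3a*, *Sema3d* and *Sema3g* kept their direction in every alternative and every fit without 1 library in which they were tested (*Sema3g* was not with a filter on the mean of the 9 libraries, nor without ECtrl replicate 3, nor against EfCtrl with only the groups compared), from -1.21 to -0.71, -2.26 to -1.43 and -1.87 to -0.91 on the log2 scale against the mean of the controls, but the number called moved. Against the mean of the controls 3 members were called, and 1 without the filter on low values (*Sema3g*), while a mean-variance trend (*Sema3g* at adjusted p = 0.0556) and a filter on the mean of the 9 libraries (*Sema3g* not tested) left 2. Against ECtrl 2 were called, and 0 without the filter, 1 with a filter on the mean of the 9 libraries, 1 with a mean-variance trend, 1 after centring and 0 with only the groups compared in the fit. Against EfCtrl 0 were called, and 1 with a pseudocount of 0.1. Over all genes the calls against ECtrl moved from 239 to 95 without the filter and to 0 with only the groups compared, and those against EfCtrl from 101 to 17 without the filter. Without 1 library, members called ranged from 0 to 2 (mean of the controls), 0 to 1 (ECtrl), 0 to 1 (EfCtrl) and stayed 0 between controls; all genes called ranged from 9 to 408, 0 to 215, 1 to 218 and 0 to 4; members past the exact permutation test ranged from 3 to 4. No member was called against the mean of the controls without EfCtrl replicate 3 or without E3KO replicate 3. The cause was not tested, beyond the fewer libraries or the larger number of genes adjusted over.

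Signs changed only in values that were not called. *Plxnd1* against ECtrl was 0.0106 after centring. *Sema3c*, which did not pass the filter, was at -0.57 in the exact permutation comparison and at 0.054 without E3KO replicate 1. The ranges that follow are from limma and do not cover *Sema3c*. Without 1 library the ranges crossing 0 were, against ECtrl, *Sema3f* -0.0187 to 0.49 and *Plxnd1* -0.18 to 0.16; against EfCtrl, *Sema3f* -0.19 to 0.27, *Sema6a* -0.0150 to 0.25 and *Plxna1* -0.24 to 0.0860; against the mean, *Sema3f* -0.0405 to 0.38, *Plxna1* -0.10 to 0.22 and *Plxnd1* -0.31 to 0.0224; between controls, *Sema3a* -0.13 to 0.0774, *Sema3d* -0.62 to 0.11, *Sema3f* -0.0255 to 0.49, *Sema6a* -0.0165 to 0.22 and *Plxna2* -0.00759 to 0.28.

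Same-numbered libraries are isolations from different mice and their deviations correlated between -0.04 and 0.12, so the numbers were not taken as a pairing. With the replicate number as a block, members called were 1 (mean of the controls), 0 (ECtrl) and 0 (EfCtrl), and all genes called 202, 1 and 1. The order of levels was not rerun without 1 library, because 5 libraries cannot give an exact p below 0.0625. With 3 libraries a group and no fragment counts, small changes and genes near 0 cannot be resolved.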
